A study of Homo sapiens with 18 samples.

Results

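The collagen, laminin and integrin genes of 3 bladder cancer cell lines are described here, since collagens and laminins build the matrix on which epithelial cells rest and integrins are the receptors with which cells hold it. Members were chosen by symbol: every gene of the series table whose Ensembl identifier mapped in GENCODE 44 to a protein-coding gene named as a collagen alpha chain, a laminin alpha, beta or gamma chain, or an integrin alpha or beta chain. One collagen gene was left out, as were pseudogenes and antisense transcripts. The choice used no measured value. It gave 56 genes of the 16575 in the table, of which 28 were collagens, 10 laminins and 18 integrins. The annotation holds 81 protein-coding genes of these forms, and 25 of them were not among the rows used here, including the leukocyte chains ITGAM, ITGAX and ITGB2. A level of at least 5 CPM, counts scaled to a common library total, in at least 1 library was reached by 42 members (19 collagens, all 10 laminins and 13 integrins) and by 13022 genes in all, and only these entered the tests.

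The study asked how the putative tumor suppressor WWOX and the transcription factors AP-2α (gene TFAP2A) and AP-2γ (gene TFAP2C) alter signaling in this cancer. The established human bladder carcinoma lines used were RT-112 and HT-1376 together with CAL-29, each made into 6 stably transduced variants. Each variant was profiled once by CAGE-seq, which counts reads from the capped 5′ ends of transcripts. The 18 libraries therefore hold 1 library for each line and variant, and the 3 lines serve as the replicates of a variant.

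All variants went through 2 lentiviral transductions, each followed by antibiotic selection (puromycin first, G418 second). KK received blank control virus both times. KA and KC received the blank control first and then a pLKO-Neo-CMV vector for AP-2α or AP-2γ. WK received the pLenti-GIII-CMV-GFP-2A-Puro vector for WWOX first and the blank control second, and WA and WC received the WWOX vector first and the AP-2α or AP-2γ vector second. Each transgene was thus driven by the viral CMV promoter. RT-112 was grown in RPMI-1640 medium and the other lines in DMEM, so line and medium cannot be told apart. The second transduction was applied to cells that already carried WWOX or its control, so that within a line the K variants share the first control transduction and the W variants share the WWOX transduction. An effect of WWOX within a line and a difference between these selected populations cannot be told apart.

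The libraries held 13357102 to 17958572 reads on genes, so that 1 read was worth 0.0526 to 0.0709 CPM and a gene without reads may have held up to 3 reads (0.158 to 0.213 CPM, counting error only). Outside the library labelled CAL-29 KC, TFAP2C was higher in 5 of 5 AP-2γ variants than in their matched library (1.35 to 4.55 times) and TFAP2A in 5 of 6 AP-2α variants (0.91 to 2.6 times). The library labelled RT-112 WA, an AP-2α variant, went against its label: TFAP2C stood at 179.9 CPM there, against 56.2 CPM in WK and 143 CPM in the AP-2γ variant WC, and TFAP2A at 25.3 CPM against 20.3 in WK. WWOX itself was higher in 3 of 8 W variants (0.71 to 2.43 times) and lower in all 3 of RT-112. The W variants of RT-112 and the WK and WA variants of HT-1376 therefore carry the WWOX label without more WWOX reads. HT-1376 WC, at 23.1 CPM, was above its matched KC (17 CPM) but inside the range of the K variants of that line, which ended at 24.7 CPM. CAL-29 WC, at 62.4 CPM, was not above CAL-29 KK (63.7 CPM), though above KA (51.3 CPM). How reads from the vector were counted is not given in the sources used here. These reads are of RNA. The study reports that WWOX and AP-2 proteins were blotted to check the transductions, and protein was not measured here. Summed epithelial markers were at 4674 to 25691 CPM in the 17 other libraries, those of fibroblasts at 14.3 CPM or less, endothelial cells at 4.11 or less and leukocytes at 40.8 or less. The sums hold 6 of 6, 3 of 6, 1 of 4 and 3 of 6 markers, LUM, THY1 and FAP among the fibroblast ones, and the defining genes DCN, PECAM1 and PTPRC were not among the rows used here. In bulk libraries, fewer cells of a kind and less RNA per cell cannot be told apart.

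The library labelled CAL-29 KC went against its cell line label. Of the 42 members tested, 36 lay inside the range of the 6 HT-1376 libraries and 14 inside that of the 5 other CAL-29 libraries. COL5A2 stood at 0.12 CPM there and at 87.4, 39.2, 130.2, 63.4 and 62.1 CPM in CAL-29 KK, KA, WK, WA and WC. COL4A1 stood at 0.12 CPM, against 1.88 or more in the other CAL-29 libraries. ITGA1, at 16 CPM, was inside the HT-1376 range of 12.4 to 31.5 CPM and above the CAL-29 range, which ended at 1.57 CPM. Across the members, its log2 levels had a Pearson r of 0.91 with the HT-1376 medians and of 0.60 with the CAL-29 medians, whereas the other 17 libraries had an r of 0.86 to 0.99 with the rest of their own line. LAMB4 stood apart from both lines, at 60.4 CPM against 14.2 CPM or less elsewhere. Comparisons below leave this library out unless stated, and values with it are given beside the results it touches.

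As background, type IV collagen forms the network of basement membranes from chains encoded by 3 pairs of neighboring genes, and fibrillar collagens such as types I and V form the stroma. Laminins are heterotrimers of an alpha, a beta and a gamma chain. Those with the chains LAMA3 and LAMB3 anchor epithelium through the integrin α6β4 (ITGA6, ITGB4) in hemidesmosomes, together with the transmembrane collagen XVII. Integrins α1β1 and α2β1 bind collagen, α3β1 and α6β4 bind laminin, and α5β1 and the αv integrins bind fibronectin and related ligands. In the urothelium these genes mark the basal layer and its border with the stroma.

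CAGE reads start at promoters, and the 3 type IV pairs each face each other across one promoter region. COL4A1 (chr13:110148963-110307157, minus strand) and COL4A2 (chr13:110305812-110513209, plus strand) lie head to head on hg38, as do COL4A4 (chr2:227002714-227164453, minus) and COL4A3 (chr2:227164624-227314792, plus), and COL4A6 (chrX:108155607-108439497, minus) and COL4A5 (chrX:108439838-108697545, plus). In the RefSeq promoter windows of GRCh38.p14, which run from 250 bases before to 50 bases after an annotated start, the starts of the pairs were 127, 419 and 380 bases apart and the windows overlapped by 226, 82 and 121 bases. Windows are shown because COL4A2 had the largest fitted fold change between RT-112 and HT-1376, with 1 window of the second pair for comparison, and because COL4A6 and ITGB5 differed between the WWOX arms of HT-1376. Of the 3 windows of ITGB5, the one with the most matches (2) is printed, and the others held 1 and 0. They are given 5′ to 3′ on the strand of the gene, and capitals mark the AP-2 consensus GCCNNNGGC, whose letters read the same on both strands.
COL4A2, chr13:110307034-110307333, plus strand: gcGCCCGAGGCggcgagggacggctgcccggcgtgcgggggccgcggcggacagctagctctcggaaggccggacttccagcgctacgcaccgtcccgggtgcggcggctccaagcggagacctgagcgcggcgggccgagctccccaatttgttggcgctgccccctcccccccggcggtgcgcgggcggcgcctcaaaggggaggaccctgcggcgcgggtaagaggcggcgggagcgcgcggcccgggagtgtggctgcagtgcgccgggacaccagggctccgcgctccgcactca
COL4A4, chr2:227164156-227164455, minus strand: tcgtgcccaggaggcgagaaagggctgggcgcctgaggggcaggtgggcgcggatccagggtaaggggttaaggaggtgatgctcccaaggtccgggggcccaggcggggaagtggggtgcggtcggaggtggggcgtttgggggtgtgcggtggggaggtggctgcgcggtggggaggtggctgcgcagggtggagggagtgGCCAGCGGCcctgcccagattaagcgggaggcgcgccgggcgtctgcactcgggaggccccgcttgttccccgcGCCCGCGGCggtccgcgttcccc
COL4A5, chrX:108439588-108439887, plus strand: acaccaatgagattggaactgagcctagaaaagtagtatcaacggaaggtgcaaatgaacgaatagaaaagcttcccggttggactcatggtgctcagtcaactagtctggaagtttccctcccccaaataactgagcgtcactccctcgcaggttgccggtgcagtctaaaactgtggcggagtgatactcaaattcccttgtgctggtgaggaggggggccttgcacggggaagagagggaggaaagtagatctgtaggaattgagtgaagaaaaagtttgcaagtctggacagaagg
COL4A6, the start facing COL4A5, chrX:108439409-108439708, minus strand: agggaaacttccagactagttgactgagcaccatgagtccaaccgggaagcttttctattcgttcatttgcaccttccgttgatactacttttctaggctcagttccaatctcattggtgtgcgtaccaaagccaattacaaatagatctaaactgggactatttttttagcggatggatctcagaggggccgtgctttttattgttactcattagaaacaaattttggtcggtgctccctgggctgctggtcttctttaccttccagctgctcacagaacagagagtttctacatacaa
COL4A6, its other annotated start, chrX:108438373-108438672, minus strand: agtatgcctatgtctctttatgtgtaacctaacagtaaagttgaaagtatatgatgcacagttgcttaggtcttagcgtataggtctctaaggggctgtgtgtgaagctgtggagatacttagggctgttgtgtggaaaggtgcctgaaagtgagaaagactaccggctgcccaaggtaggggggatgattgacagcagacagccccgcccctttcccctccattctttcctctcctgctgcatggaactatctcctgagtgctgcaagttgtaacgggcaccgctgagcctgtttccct
ITGB5, chr3:124887635-124887934, minus strand: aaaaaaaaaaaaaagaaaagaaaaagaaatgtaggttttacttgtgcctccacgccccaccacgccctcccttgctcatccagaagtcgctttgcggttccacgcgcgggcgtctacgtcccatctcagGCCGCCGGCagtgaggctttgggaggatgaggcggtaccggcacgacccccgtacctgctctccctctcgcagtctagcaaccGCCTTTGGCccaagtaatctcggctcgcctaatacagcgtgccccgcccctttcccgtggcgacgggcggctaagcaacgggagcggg

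The table of windows held 40 of the 56 members in 52 windows. It had no entry for the other 16, among them COL1A1, COL1A2, COL3A1, COL5A2, COL6A1, LAMA1, ITGA3, ITGAL, ITGB3 and ITGB4. GCCNNNGGC occurred in 18 of these 52 windows (34.6%) and in 8146 of all 35116 windows (23.2%), and by gene in 16 of the 40 members (40%) and 7250 of all 27305 symbols (26.6%). The former were, among others, COL4A2, COL4A4, COL5A1, COL6A2, COL12A1, LAMA5, LAMB3, LAMC1, ITGA6, ITGB1 and ITGB5. A match says only that these letters are in the window. The windows of COL4A1, COL4A3 and COL4A5 and both windows of COL4A6 held none. The deposited values are sums per gene, so the start that was used cannot be read from them. The annotations of COL4A1 and COL4A2 overlap by 1346 bases on opposite strands, and whether the counting used strand is not given in the sources used here.

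A few genes made up much of the matrix and adhesion reads. Summed over the members, libraries reached 1571 to 2527 CPM in RT-112, 2328 to 2698 CPM in HT-1376 and 2002 to 3236 CPM in CAL-29. ITGB4, the beta chain of the hemidesmosome receptor, took 25.1% to 38.6% of this sum in RT-112, against 15.9% to 24.7% in HT-1376 libraries and 9.81% to 15.6% in those of CAL-29. LAMA5, the main alpha chain of epithelial basement membranes, took 8.26% to 21.7% over the 17 libraries. A CAGE read marks a 5′ end, so a level was not divided by gene length. In all 17 libraries, 18 members stood at 5 CPM or more, among them the collagens COL4A5, COL12A1 and COL17A1, the laminin chains LAMA5, LAMB1, LAMB2, LAMB3 and LAMC1, and the integrins ITGA2, ITGA3, ITGA5, ITGA6, ITGAE, ITGB1, ITGB4, ITGB5 and ITGB6. Another 14 stayed under 5 CPM in all 18 libraries and were not tested: COL13A1, COL21A1, COL23A1, COL26A1, COL27A1, COL3A1, COL6A3, COL9A2, COL9A3, ITGA2B, ITGA4, ITGA7, ITGAL and ITGB7. The leukocyte integrins were at or near 0, as ITGAL did not pass 0.17 CPM and ITGB7 did not pass 1.23 CPM. The exception was ITGAE, the alpha chain of the E-cadherin receptor of intraepithelial lymphocytes, with 12.8 to 54.6 CPM.

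**Figure D1:**
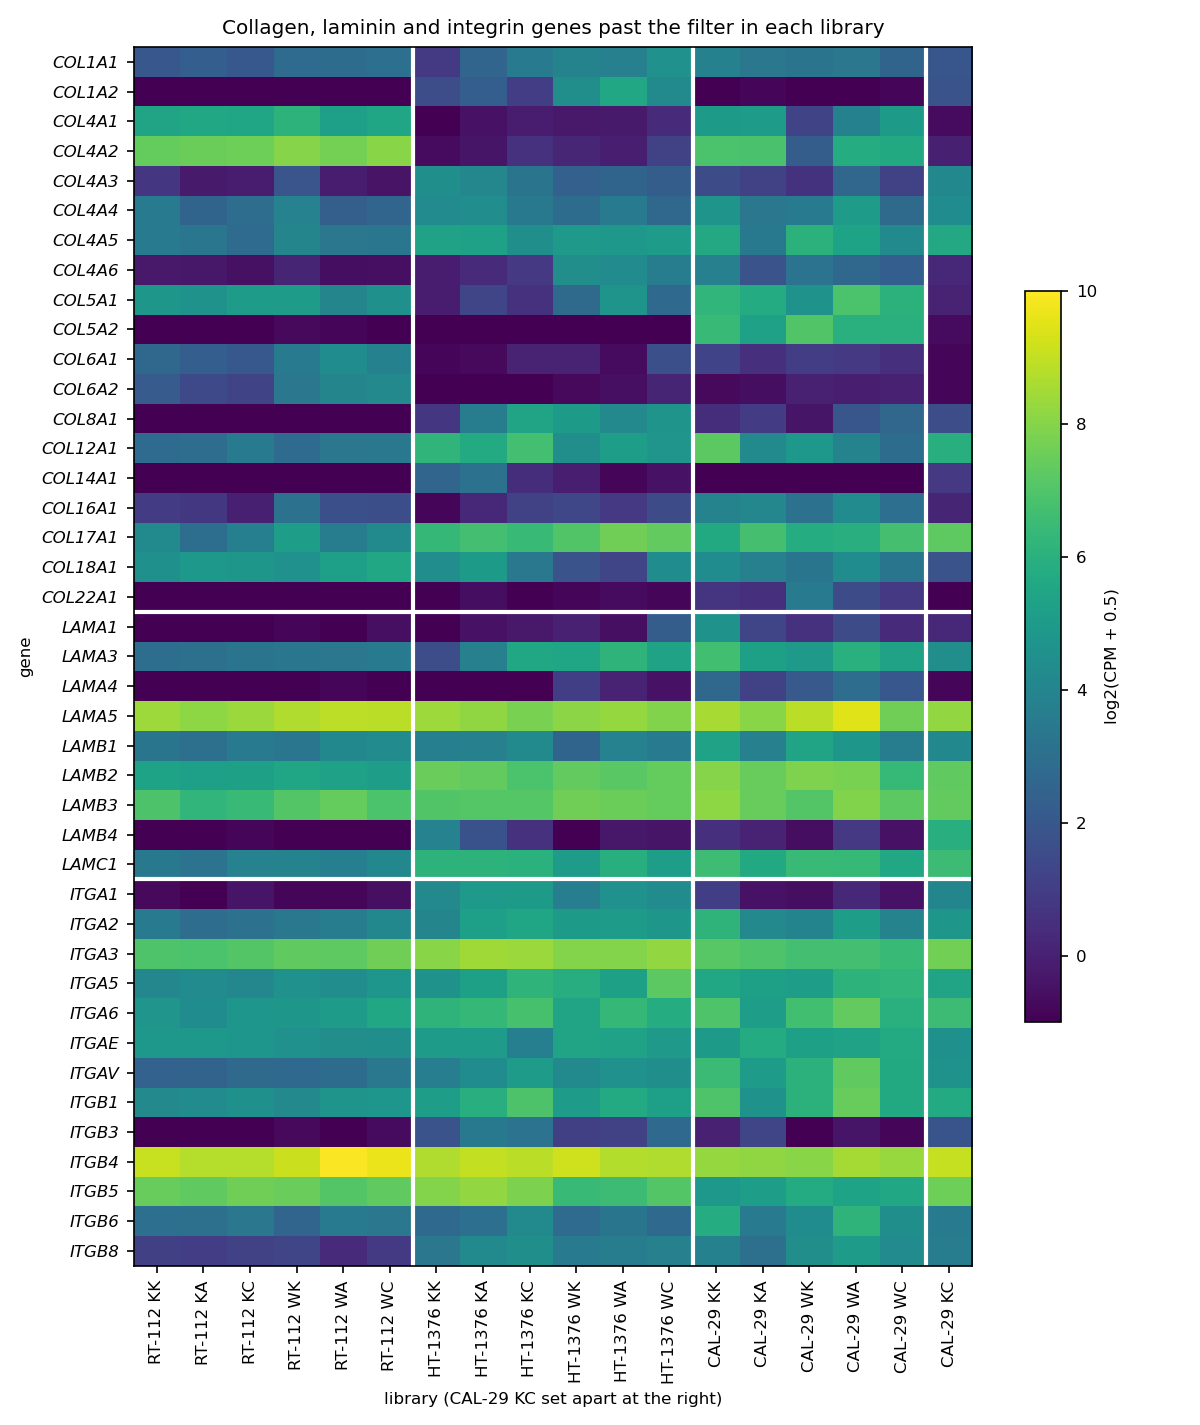
Level of 41 of the members past the filter (rows, by family) in each of the 18 libraries (columns, by cell line), as log2(CPM + 0.5) on the color scale. White lines separate the families and the cell lines, and the column of CAL-29 KC at the right resembles the HT-1376 columns, with 36 of the 42 members inside their range.

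The comparison of cell lines asked which of these genes differed between the 3 genetic backgrounds. It was made with limma on log2(CPM + 0.5) over 17 libraries, with the variant as a term and p-values adjusted (Benjamini-Hochberg) over all 13022 genes. Of the 42 members tested, 6 were higher and 23 lower in RT-112 than in HT-1376, and 61.9% of all genes passed. Against CAL-29, 6 members were higher and 26 lower in RT-112, where 71.5% of all genes passed. Between HT-1376 and CAL-29, 9 members were higher in HT-1376 and 10 lower, 19 in all or 45.2%, and 61% of all genes passed. The members' shares were 69%, 76.2% and 45.2%, so that the first and second were near those of all genes. Among the 17 libraries, some members reached 5 CPM in a single line and entered the tests through the line where they are high. They include COL1A2, COL5A2, COL14A1, COL22A1, ITGA1, ITGB3, LAMA1 and LAMA4, and their calls rest on that line.

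Scaling bore on the direction. The median log2 fold change over all genes was -0.43, -0.84 and -0.47 in the order above, and that of the members -1.09, -1.19 and -0.35. Scaling by the trimmed mean of M-values (TMM) moved the median of all genes by 0.39, 0.76 and 0.37. The split of called members then became 8 higher and 21 lower, 9 higher and 18 lower, and 11 higher and 9 lower, while the split of all genes went from 1994 higher and 7320 lower to 4190 and 4839 for RT-112 against CAL-29. Relative to the median of all genes, 27, 26 and 14 of the 42 members lay below it as deposited and 27, 28 and 14 after TMM. Members listed at 0 in every library of a line numbered 3, 2 and 2 among those compared, and setting them at their limits of 3 reads left the medians at -1.09, -1.19 and -0.35. These members already lay beyond the medians on the side to which the limits move them, so the medians could not change.

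**Figure D2:**
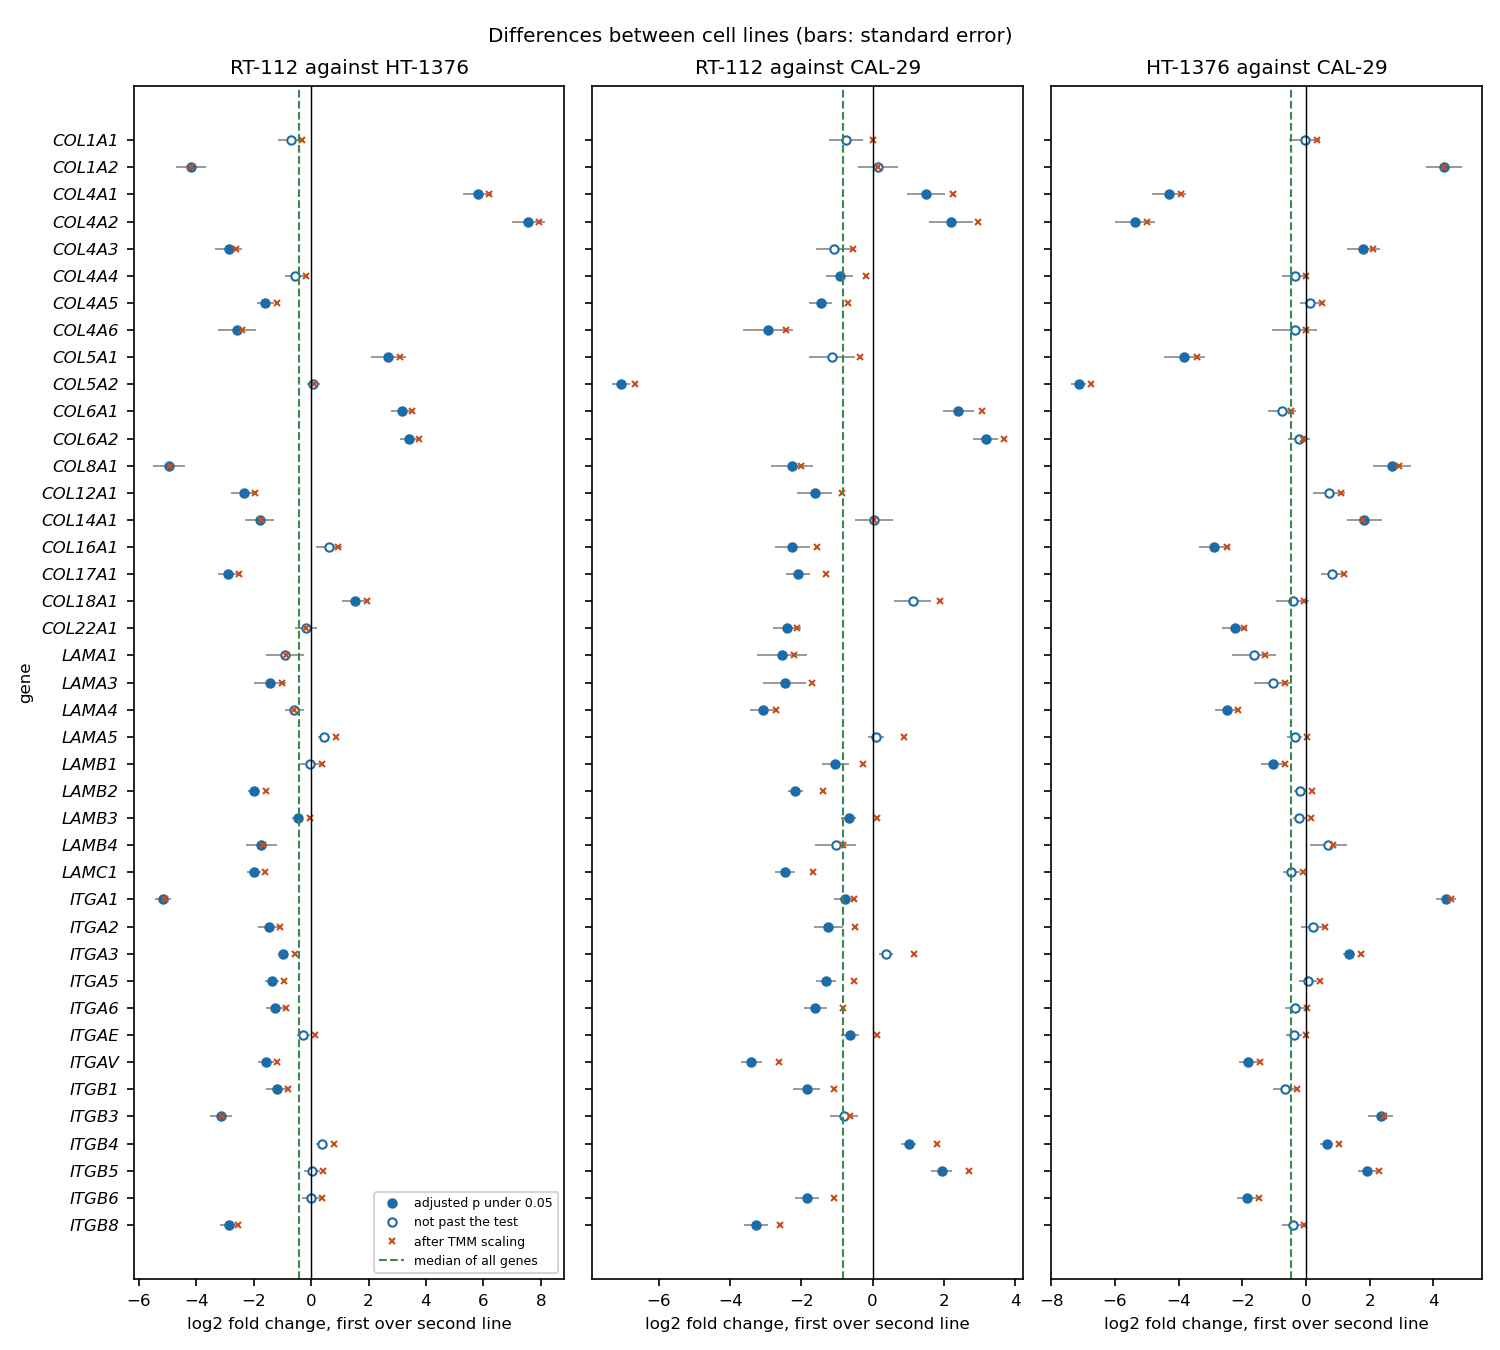
Log2 fold change between cell lines on the log2(CPM + 0.5) scale (x axis, positive when the first line is higher) for 41 of the members tested (y axis), from the fit over 17 libraries. Filled points passed the adjusted test, bars are standard errors, crosses are the values after TMM scaling and the dashed line is the median of all genes. COL4A1 and COL4A2 lie farthest to the right in the first panel and COL5A2 farthest to the left in the other panels.

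Type IV collagen held the largest fitted fold change between RT-112 and HT-1376. COL4A2 was at 169 to 261 CPM in RT-112 and at 0.13 to 1.75 CPM (median 0.54) in HT-1376. COL4A1, its partner in the most widespread type IV network, was at 36.5 to 69.5 CPM (median 43.4) and 0 to 0.77 CPM (median 0.36). The ranges did not overlap, and both genes were higher in RT-112 (log2 fold change 7.57, SE 0.57, adjusted p = 9.23e-08 for COL4A2, and log2 fold change 5.81, SE 0.50, adjusted p = 3.37e-07 for COL4A1, limma). In CAL-29 the 5 libraries differed widely. COL4A2 was at 117, 113, 4.25, 55.1 and 50.3 CPM in KK, KA, WK, WA and WC, and COL4A1 at 31, 33.3, 1.88, 13.7 and 31.3 CPM. Both genes were lowest in WK. COL4A2 was lower in CAL-29 than in RT-112 (2.19, adjusted p = 0.00559) and higher in CAL-29 than in HT-1376 (-5.38, adjusted p = 7.35e-06, limma), and COL4A1 had the same order (1.50 and -4.31, adjusted p = 0.0221 and 1.63e-05). Within a library, COL4A2 stood 3.68 to 6.01 times as high as COL4A1 in RT-112 and 1.61 to 4.03 times in CAL-29. With a pseudocount of 0.05 CPM, COL4A1 in RT-112 against CAL-29 no longer passed (1.52, adjusted p = 0.0758, limma), nor did it without RT-112 WK (1.06, adjusted p = 0.0783).

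Of the second pair, COL4A3 was low in RT-112. COL4A3, a chain of the specialized type IV network, was at 0.24 to 3.27 CPM (median 0.41) in RT-112, 4.27 to 22.1 CPM (median 7.16) in HT-1376 and 1.05 to 5.67 CPM (median 1.69) in CAL-29. It was lower in RT-112 than in HT-1376 (log2 fold change -2.88, SE 0.48, adjusted p = 0.000152, limma) and higher in HT-1376 than in CAL-29 (1.80, adjusted p = 0.00821, and 1.31 with adjusted p = 0.0665 with all 18 libraries). Its partner COL4A4 was at 4.47 to 14.3 CPM (median 6.3), 5.86 to 20.4 CPM (median 10.5) and 6.41 to 32.3 CPM (median 11.5), and these ranges overlapped. It was lower in RT-112 than in CAL-29 (-0.92, adjusted p = 0.0447, limma), a call held in 7 of 17 fits that left out 1 library and lost after TMM, a scaling described above. COL4A4 stood 4.38 to 22.9 times as high as COL4A3 in RT-112, 3.79 to 10.9 times in CAL-29, and 0.87 to 2.04 times in HT-1376, so that the levels of the pair were closest in HT-1376.

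The third pair, on chromosome X, was uneven. COL4A5 was at 6.79 to 15.5 CPM (median 9.56) in RT-112, 21.9 to 40.2 CPM (median 32) in HT-1376 and 10.3 to 67 CPM (median 41.7) in CAL-29, lower in RT-112 than in either other line (-1.59 and -1.46, adjusted p = 0.000421 and 0.00108, limma). COL4A6 did not pass 0.60 CPM in RT-112 and reached 2.99 to 13.5 CPM in CAL-29 (log2 fold change -2.94, SE 0.70, adjusted p = 0.00183, limma). In HT-1376 it split by WWOX label, as given further on. COL4A5 stood 25.9 to 57.2 times as high as COL4A6 in RT-112 and 3.44 to 7.77 times in CAL-29.

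**Figure D3:**
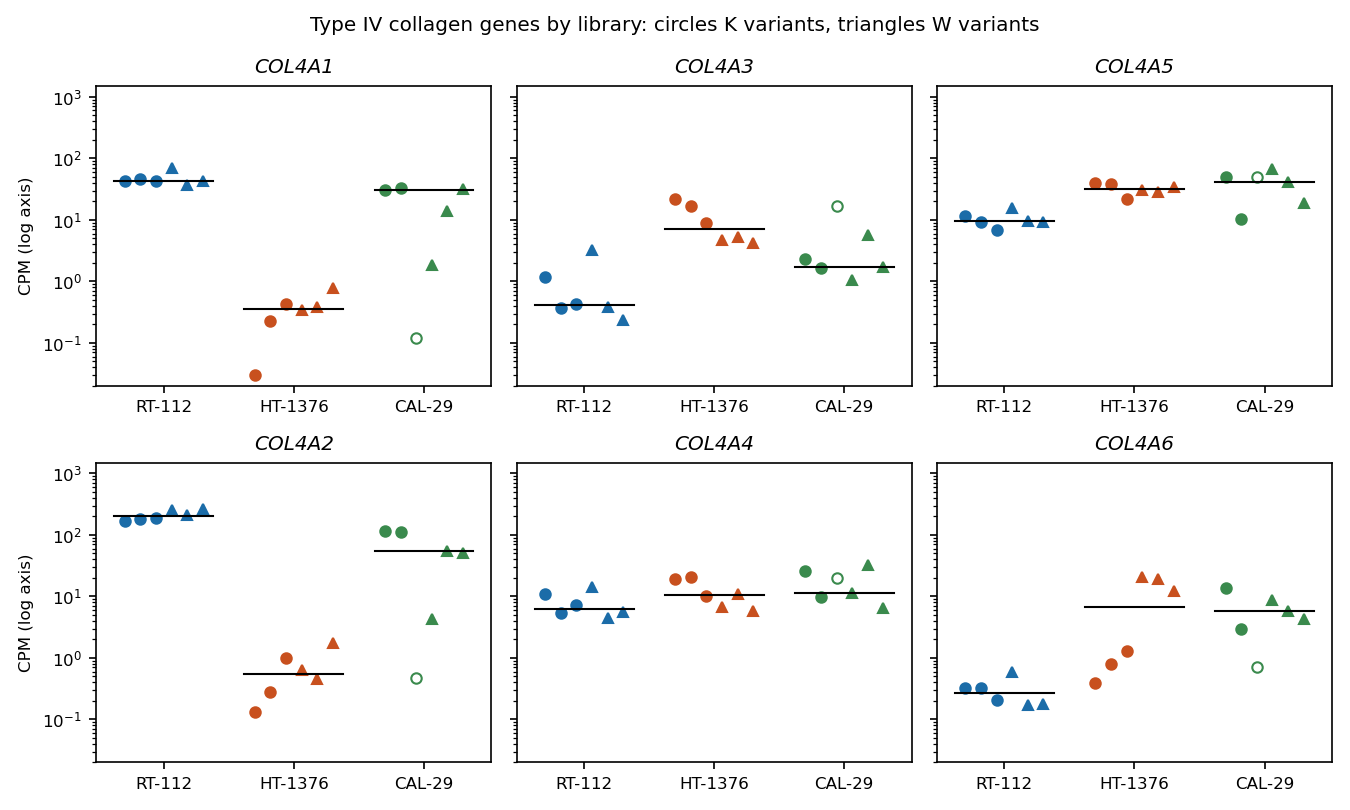
CPM on a log axis of the 6 type IV collagen genes in each library, by cell line, with partners of a gene pair above each other. Within a line the variants run KK, KA, KC, WK, WA, WC from left to right, circles are K and triangles W variants, the black bar is the line's median, the open circle is CAL-29 KC and a level of 0 is drawn at 0.03 (COL4A1 in HT-1376 KK). COL4A1 and COL4A2 are low in all HT-1376 libraries, and COL4A6 is high in the 3 W variants of HT-1376 alone among its 6 libraries.

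The fibrillar collagens differed from line to line. COL5A2, a chain of type V collagen, was at 87.4, 39.2, 130.2, 63.4 and 62.1 CPM in the 5 CAL-29 libraries, had 0 reads in all 6 HT-1376 libraries and did not pass 0.11 CPM in RT-112. It was at least 414-fold higher in CAL-29 than in HT-1376, taking 3 reads per library as the limit of the lines without reads. COL5A1, its usual partner chain, was at 23.8 to 117 CPM (median 67) in CAL-29 and 15.6 to 33.6 CPM (median 25.7) in RT-112, and lower in HT-1376 (0.39 to 25.6 CPM (median 4.09), adjusted p = 0.00159 against RT-112 and 0.00022 against CAL-29, limma). RT-112 and CAL-29 did not differ past the test (-1.13, adjusted p = 0.131).

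COL1A2, the second chain of type I collagen, was found in HT-1376. It had 0 reads in all 6 RT-112 libraries, did not pass 0.06 CPM in CAL-29, and ran from 1.49 to 46.1 CPM in HT-1376, at least 95.1-fold higher there than in RT-112. COL1A1, the first chain, was present in all lines, at 3.44 to 7.6 CPM (median 5.53), 1.32 to 23.3 CPM (median 12.2) and 5.4 to 13.8 CPM (median 9.68) in RT-112, HT-1376 and CAL-29, and passed no line comparison (smallest adjusted p = 0.183, limma). COL3A1 did not pass 3.25 CPM in any library and was not tested.

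Other collagens also followed the line. COL6A1 and COL6A2, chains of the microfibrillar type VI collagen that neighbor each other on chromosome 21, were at 3.53 to 19.9 CPM (median 8.41) and 1.87 to 17.4 CPM (median 6.89) in RT-112, and were higher there than in HT-1376 (3.17 and 3.41) and CAL-29 (2.41 and 3.18, largest adjusted p of the 4 = 0.000211, limma). COL6A3, the third chain, did not pass 2.04 CPM. COL8A1, a network collagen, was at 1.18 to 42.7 CPM (median 21.6) in HT-1376 and had 0 reads in RT-112, at least 131-fold lower there. COL17A1, the hemidesmosomal collagen XVII, was at 7.42 to 35.5 CPM (median 15.6) in RT-112, below the ranges of HT-1376 (80.8 to 194) and CAL-29 (50.3 to 107, adjusted p = 3.2e-06 and 9.05e-05, limma). COL12A1, a fibril-associated collagen, was also lower in RT-112 (-2.34 and -1.62), but the second of these did not pass after TMM (-0.86, adjusted p = 0.104). COL18A1, the source of endostatin, was higher in RT-112 than in HT-1376 (log2 fold change 1.55, SE 0.49, adjusted p = 0.0136), at 22.3 to 45.8 CPM (median 28.1) and 1.98 to 31.3 CPM (median 15). It was also higher in RT-112 than in CAL-29 after TMM (1.90, adjusted p = 0.00283, limma), though not as deposited. COL16A1, another fibril-associated collagen, was at 7.59 to 19 CPM (median 14.9) in CAL-29 and did not pass 2.47 CPM in HT-1376 (log2 fold change -2.88, SE 0.50, adjusted p = 0.000267 for HT-1376 against CAL-29, limma).

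The epithelial laminin chains LAMA3 and LAMB3 differed between the lines to unequal degrees. LAMA3 had its lowest median in RT-112, at 7.42 to 11.3 CPM (median 9.12), against 2.56 to 70.2 CPM (median 43) in HT-1376 and 30.3 to 100.5 CPM (median 39.6) in CAL-29. Its comparison with HT-1376 (-1.42, adjusted p = 0.0387) did not pass after TMM (-1.03, adjusted p = 0.121).

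LAMB3 differed less, at 74.9 to 166 CPM (median 120.3), 128 to 194 CPM (median 152) and 132 to 278 CPM (median 176). It was lower in RT-112 than in CAL-29 (-0.67, adjusted p = 0.00902, limma) on the deposited scale, but 0.12 after TMM, so this direction depends on the scaling. The chains of the hemidesmosome receptor went different ways: ITGB4 was at 435 to 976 CPM (median 550.1) in RT-112, 411 to 596 CPM (median 441) in HT-1376 and 262 to 369 CPM (median 304) in CAL-29, and ITGA6 had medians of 27.5, 75.6 and 102 CPM in the same order. ITGB4 was higher in RT-112 than in CAL-29 (log2 fold change 1.01, SE 0.20, adjusted p = 0.000514, limma), and ITGA6 was lower (log2 fold change -1.60, SE 0.32, adjusted p = 0.000509). After TMM ITGB4 was also higher in RT-112 than in HT-1376 (0.78, adjusted p = 0.00619, limma). Within a library, ITGB4 stood 16.2 to 29.2 times as high as ITGA6 in RT-112, 4.1 to 14 times in HT-1376 and 2.25 to 8.08 times in CAL-29. The RT-112 ratios lay above those of both other lines, and such a ratio does not depend on the scaling of a library.

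**Figure D4:**
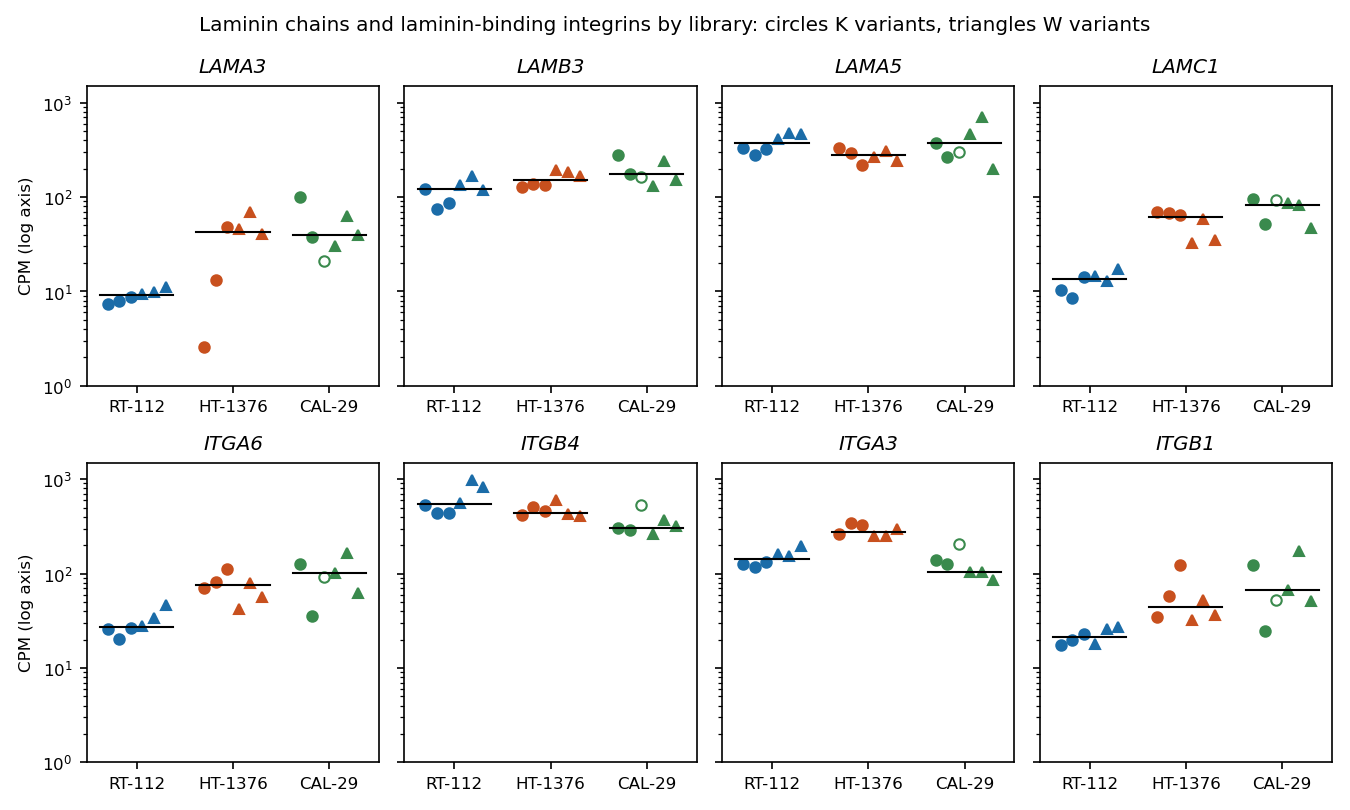
CPM on a log axis of the laminin chains LAMA3, LAMB3, LAMA5 and LAMC1 and of laminin-binding integrin chains in each library, by cell line. Variants run KK, KA, KC, WK, WA, WC from left to right within a line, circles are K and triangles W variants, the black bar is the line's median and the open circle is CAL-29 KC. LAMC1 lies lower in every RT-112 library than in any HT-1376 or CAL-29 library, and ITGB4 lies at 435 CPM or more in RT-112.

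Of the other laminins, LAMA5 was high in every library, at 279.6 to 482 CPM (median 371), 219 to 330.5 CPM (median 279) and 198 to 703 CPM (median 376) in RT-112, HT-1376 and CAL-29, and passed no line comparison as deposited (smallest adjusted p = 0.0744, limma). After TMM it was higher in RT-112 than in HT-1376 and CAL-29 (0.87 and 0.89, adjusted p = 0.00102 and 0.00122, limma). LAMB2 and LAMC1, a beta and a gamma chain that can join it in a trimer, were lower in RT-112. LAMB2 was at 33.9 to 44 CPM (median 38), 117 to 179 CPM (median 163) and 81.3 to 259 CPM (median 222), and LAMC1 at 8.52 to 17.1 CPM (median 13.6), 32.9 to 69.2 CPM (median 61.6) and 47.5 to 95.5 CPM (median 81.9). The RT-112 ranges of both lay below those of the other lines (adjusted p of 1.22e-06 to 1.17e-05 in the 4 comparisons, limma). LAMB1 was lower in RT-112 than in CAL-29 (-1.05, adjusted p = 0.0237), though not after TMM (-0.28, adjusted p = 0.48). Of the low alpha chains, LAMA4 was at 1.66 to 7.15 CPM (median 3.76) in CAL-29 and did not pass 1.55 CPM in the other lines (-3.08 and -2.50 against CAL-29, adjusted p = 4.49e-06 and 4.65e-05, limma). LAMA1, an alpha chain of embryonic laminin, was at 0.73 to 24.9 CPM (median 1.94) in CAL-29, 0 to 0.18 CPM (median 0) in RT-112 and 0 to 4.22 CPM (median 0.29) in HT-1376 (log2 fold change -2.55, SE 0.70, adjusted p = 0.00494 for RT-112 against CAL-29). For HT-1376 against CAL-29 it did not pass as deposited (-1.64) or after TMM (-1.30, adjusted p = 0.103, limma).

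Among integrins, the collagen receptor ITGA1 had the smallest p between RT-112 and HT-1376. It was at 12.4 to 31.5 CPM (median 21.2) in HT-1376 and did not pass 0.27 CPM in RT-112 or 1.57 CPM in CAL-29 (log2 fold change -5.17, SE 0.28, adjusted p = 2.89e-09 for RT-112 against HT-1376, limma). ITGA1 passed the filter through HT-1376 and the library labelled CAL-29 KC, so this call rests on the line where it is high. The neighbor of ITGA1 on chromosome 5, ITGA2, the other collagen receptor, was at 7.1 to 16.8 CPM (median 10.5) in RT-112, 15.7 to 43.2 CPM (median 31.9) in HT-1376 and 14.5 to 71.8 CPM (median 17.8) in CAL-29. ITGA3, the laminin receptor, was highest in HT-1376, at 249 to 343 CPM (median 277) against 116 to 194 CPM (median 144) in RT-112 and 84.7 to 140.0 CPM (median 105) in CAL-29 (-0.97 for RT-112 against HT-1376 and 1.36 for HT-1376 against CAL-29, adjusted p = 0.000301 and 4.32e-05). It was also higher in RT-112 than in CAL-29 after TMM (1.17, adjusted p = 8.4e-05, limma), though not as deposited.

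Of the chains of αv integrins, ITGAV and ITGB6 were highest in CAL-29. ITGAV was at 4.93 to 10.1 CPM (median 6.45) in RT-112, 12.4 to 32 CPM (median 20.7) in HT-1376 and 33.5 to 158 CPM (median 67.5) in CAL-29, and the 3 ranges did not overlap (-3.40 and -1.82 against CAL-29, adjusted p = 5.18e-07 and 0.000186, limma). Its epithelial partner ITGB6 was at 5.45 to 10.8 CPM (median 8.82), 6.25 to 18 CPM (median 7.1) and 11.3 to 71 CPM (median 21.6), higher in CAL-29 than in either other line (-1.84 and -1.85, adjusted p = 0.000233 and 0.000378). Another partner, ITGB5, was lowest there: it was at 132 to 194 CPM (median 166) and 87 to 298 CPM (median 181) in RT-112 and HT-1376 and at 28.6 to 54.5 CPM (median 41.7) in CAL-29 (1.94 and 1.92, adjusted p = 6.01e-05 and 0.000108). ITGB1, which pairs with most alpha chains, was at 17.4 to 26.9 CPM (median 21.1), 32.4 to 122 CPM (median 44.5) and 24.8 to 173 CPM (median 66.8), lower in RT-112, though its range met that of CAL-29 (-1.20 and -1.85, adjusted p = 0.00946 and 0.000618). Of the other αv partners, ITGB8 was at 0.78 to 1.96 CPM (median 1.54) in RT-112, 9.8 to 21.5 CPM (median 12.4) in HT-1376 and 7.85 to 32.6 CPM (median 19.4) in CAL-29 (log2 fold change -3.27, SE 0.33, adjusted p = 1.63e-06 for RT-112 against CAL-29), and ITGB3 at 1.61 to 10.4 CPM (median 4.67) in HT-1376, 0.12 CPM or less in RT-112 and 1.94 or less in CAL-29 (-3.14 and 2.34, adjusted p = 7.41e-06 and 0.000237, limma).

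The fibronectin receptor ITGA5 was lower in RT-112 than in HT-1376 and CAL-29 (-1.36 and -1.31), the latter not after TMM (-0.53, adjusted p = 0.102). ITGAE was lower in RT-112 than in CAL-29 as deposited (-0.65, adjusted p = 0.0328) and 0.13 after TMM, so its direction depends on the scaling. With the library labelled CAL-29 KC included, 27, 36 and 16 members passed in the 3 line comparisons in place of 29, 32 and 19.

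Within a line the members varied more than genes at large. Among genes with a mean of at least 5 CPM, the median SD of log2(CPM + 0.5) over the variants was 0.36 for members and 0.26 for all genes in RT-112, 0.59 and 0.37 in HT-1376, and 0.74 and 0.47 in CAL-29. ITGB4 was among the steadier members in HT-1376 and CAL-29, with SDs of 0.21 and 0.18, whereas COL4A6 had an SD of 2.11 in HT-1376 and COL4A2 of 1.89 in CAL-29. The SDs are descriptions without a test.

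The effect of WWOX was next compared within each line, with terms for WWOX, AP-2α and AP-2γ in every line. The calls fell in HT-1376, where 9 of 42 members passed (21.4%, 20 members at an unadjusted p under 0.05) and 9.75% of all genes did (612 higher and 657 lower). The 5 members that rose were all collagens, and the 4 that fell were COL12A1, COL14A1, LAMB4 and ITGB5. COL1A2 stood at 2.5, 4.37 and 1.49 CPM in KK, KA and KC and at 21.4, 46.1 and 18.9 CPM in WK, WA and WC (log2 fold change 3.14, SE 0.22, adjusted p = 0.000566, limma). COL4A6 stood at 0.39, 0.79 and 1.28 CPM in the K variants and 20.9, 19.2 and 12.2 CPM in the W variants (log2 fold change 3.79, SE 0.40, adjusted p = 0.0019). All W variants lay above all K variants for both genes, and both still passed when any single library was left out. COL1A2 reached 5 CPM only in these W variants, so it passed the filter through the arm where it is high and its call rests on that arm. It had at most 1 read per library in RT-112 and the CAL-29 libraries used, and its SE pools the spread over these lines too. The partner of COL4A6, COL4A5, which shares the promoter region printed above, was at 40.2, 38.2 and 21.9 CPM without and 30.3, 28.4 and 33.8 CPM with the WWOX vector, and these overlapped (-0.07, SE 0.32).

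COL5A1 stood at 0.39, 1.93 and 0.99 CPM in the K variants of HT-1376 and at 6.54, 25.6 and 6.25 CPM in the W variants (log2 fold change 2.86, SE 0.47, adjusted p = 0.00897). COL1A1 went from 1.32, 5.45 and 11.1 to 14.8, 13.2 and 23.3 CPM (log2 fold change 1.77, SE 0.39, adjusted p = 0.0253). COL17A1 was at 80.8, 104 and 83.5 CPM without and at 129, 194 and 166 CPM with the vector (log2 fold change 0.85, SE 0.21, adjusted p = 0.0366, limma for all 3). The 3 fibrillar chains that rose were COL1A1 and COL1A2 of type I and COL5A1 of type V. The usual partner of COL5A1, COL5A2, had no reads in any HT-1376 library.

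ITGB5 fell, from 252, 298 and 228 CPM in KK, KA and KC to 87, 93.8 and 134 CPM in WK, WA and WC (log2 fold change -1.32, SE 0.21, adjusted p = 0.00864). COL12A1 was at 73.2, 52.7 and 104 CPM and then at 21.3, 35 and 26.2 CPM (log2 fold change -1.44, SE 0.38, adjusted p = 0.0478). COL14A1, another fibril-associated collagen, was at 5.46, 8.28 and 0.85 CPM and 0.46, 0.06 and 0.22 CPM (log2 fold change -2.50, SE 0.45, adjusted p = 0.0132). LAMB4 was at 14.2, 2.89 and 0.99 CPM and 0, 0.32 and 0.27 CPM, with the KK library far above the others (log2 fold change -2.63, SE 0.63, adjusted p = 0.0352, limma for all 4). For COL14A1 and LAMB4 the W values are at a few reads. The SE pools the spread over the lines, and COL14A1 had 0 reads in every RT-112 library and the CAL-29 libraries used. LAMB4 had an SD of log2(CPM + 0.5) of 0.06 in RT-112 and 1.80 in HT-1376. Both SEs may therefore understate the spread within HT-1376. COL14A1 passed the filter through KK and KA of HT-1376 alone, and LAMB4, outside the library labelled CAL-29 KC, through KK alone, so these calls rest on the arm where the genes are high. With 5 CPM required in 3 libraries neither was tested and 7 members passed.

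The count of 9 rests on single libraries. It was 2 without KK, 2 without WK, 2 without WA and 3 without KA of HT-1376, 5 without RT-112 KA or RT-112 WA, and 15 without CAL-29 KK, KA, WK or WA. Without one of the latter, CAL-29 has as many terms as libraries and adds nothing to the estimate of the spread. The count was 2 (COL1A2 and COL4A6) with the library labelled CAL-29 KC included. TMM, which moved the median of all genes by 0.14, called 10 members, these 9 among them, voom 11, edgeR 10 and DESeq2 14. Of these 9, voom did not call COL17A1 (adjusted p = 0.0513), edgeR did not call LAMB4 (adjusted p = 0.081), and DESeq2 called neither COL14A1 (adjusted p = 0.657) nor COL1A2 (3.62, adjusted p = 0.514). COL12A1 and COL17A1 passed in 5 of 17 fits that left out 1 library, and LAMB4 in 7. WWOX reads themselves were not higher in WK and WA of this line and lay inside the range of its K variants in WC, as given above. The part of this in the result was not tested.

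Summed markers of other cells moved with the same split in HT-1376. Summed over the 3 fibroblast markers measured, the K variants held 0.07 to 3.47 CPM and the W variants 4.48 to 13 CPM, nearly all of it THY1, with FAP at 0 in all 6 libraries and LUM at 0.22 CPM or less. The 3 leukocyte markers summed to 2.49 to 6.09 CPM in K and 13.8 to 18.5 CPM in W, with CD14 at 0.38 CPM or less, and the 1 endothelial marker, CDH5, to 2.1 to 4.11 and 0.19 to 0.71 CPM. The 6 epithelial markers summed to 12604 to 14411 CPM in K and 9361 to 10601 CPM in W. The ranges of these sums did not overlap, but single markers went different ways. KRT7, KRT8 and KRT18 were lower in W, whereas CDH1 and EPCAM overlapped. KRT19 was higher in W (12.6 to 94.9 CPM in K and 235 to 378 CPM in W). Among the leukocyte markers CD68 was higher in W, and LCP1 and CD14 overlapped. The part of these markers in the change of COL1A1, COL1A2 and COL5A1 was not tested.

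**Figure D5:**
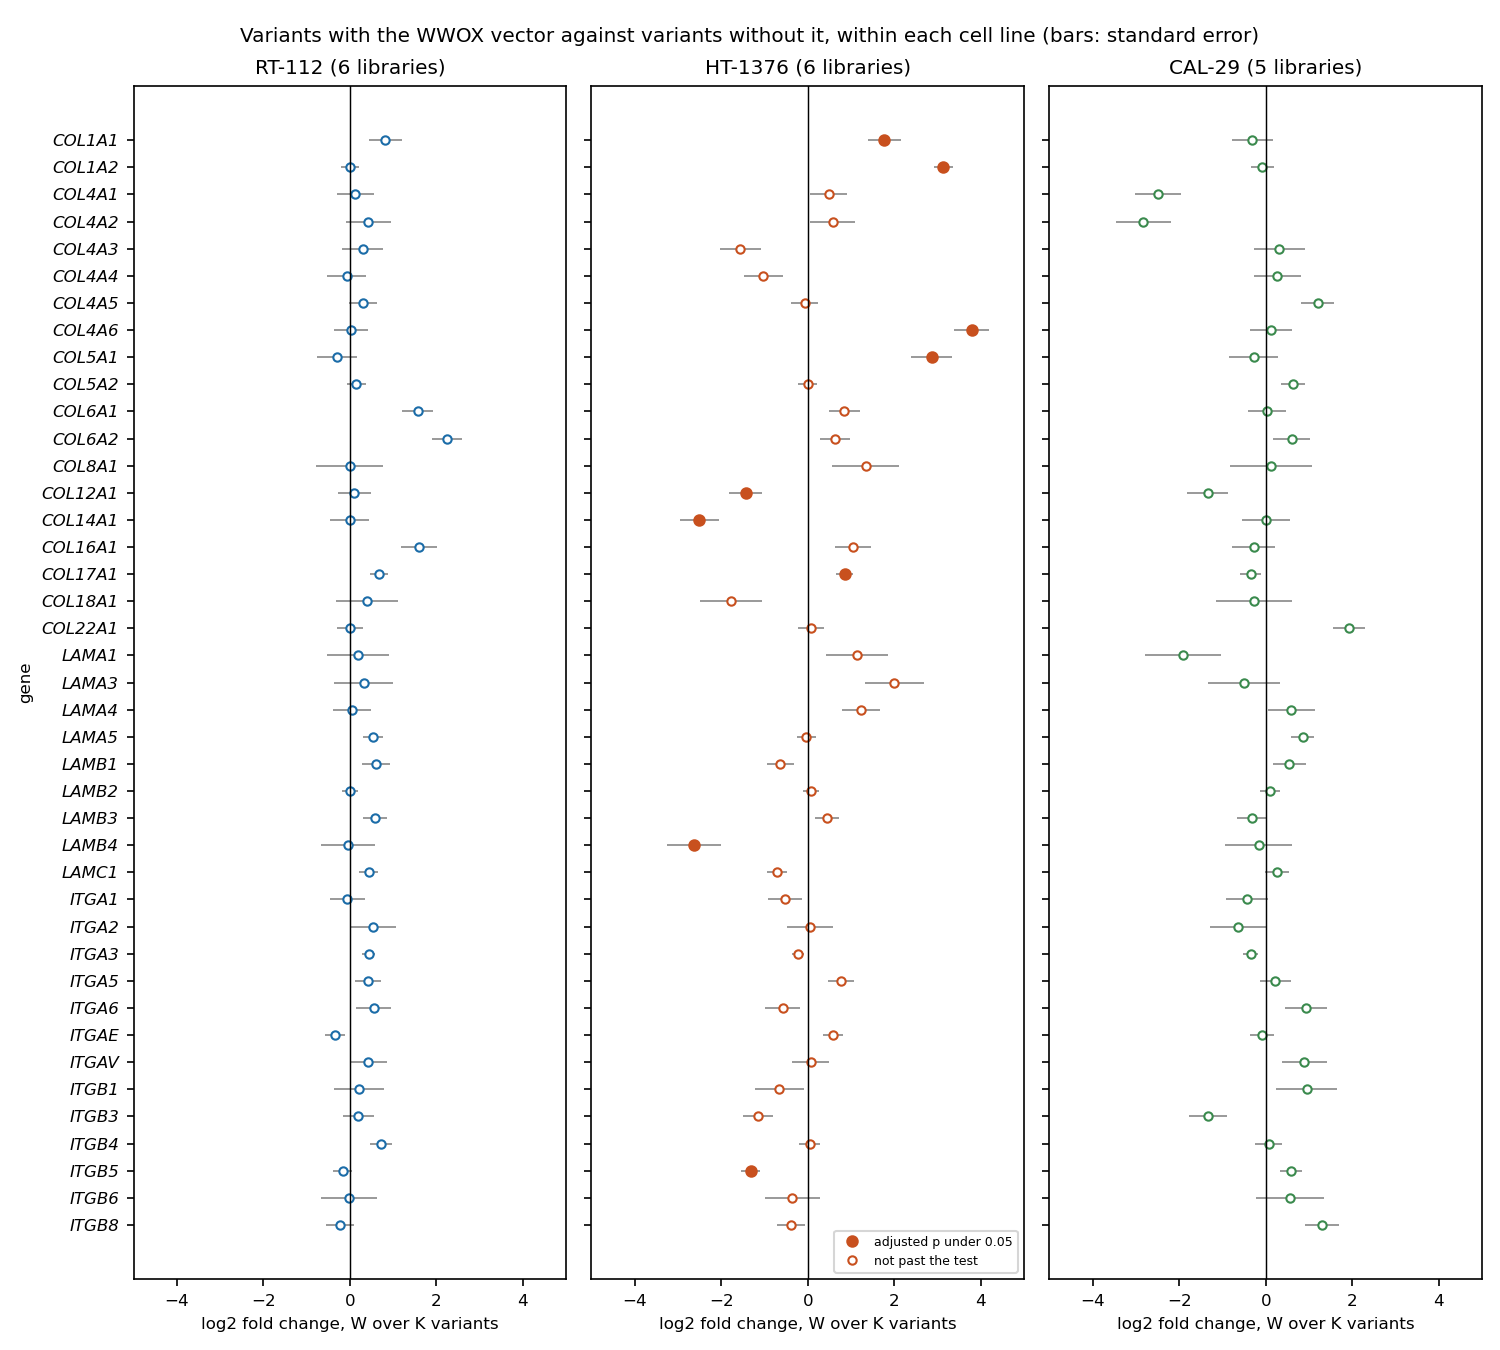
Log2 fold change of the W over the K variants within each cell line (x axis) for 41 of the members tested (y axis), from the fit with terms for WWOX, AP-2α and AP-2γ in every line. Filled points passed the adjusted test and bars are standard errors, with the spread pooled over the lines. In CAL-29 the WC library alone carries the AP-2γ term, so it does not enter the values shown. All 9 filled points are in HT-1376, 5 to the right of 0 and 4 to the left.

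In RT-112 no member passed (limma, 0 of 42, 7 at an unadjusted p under 0.05), and 0% of all genes did. The smallest unadjusted p belonged to type VI collagen. COL6A2 stood at 3.93, 2.16 and 1.87 CPM in KK, KA and KC and at 9.86, 15.7 and 17.4 CPM in WK, WA and WC (log2 fold change 2.25, SE 0.34, adjusted p = 0.296), and COL6A1 at 5.98, 4.42 and 3.53 and 10.8, 19.9 and 13.9 CPM (log2 fold change 1.56, SE 0.36, adjusted p = 0.385). Neither passed, though the W and K values did not overlap. Voom and edgeR called none either, and DESeq2 called 3, COL6A1, COL6A2 and COL16A1. The W and K values did not overlap for 12 members (28.6%), 11 higher and 1 lower in W, and for 21% of all genes (1234 higher and 1495 lower). With 3 libraries against 3, an exact permutation test of a single gene cannot give a p below 0.1. ITGB4 was one of the 11, at 536, 435 and 435 CPM without and 564, 976 and 820.3 CPM with the vector (log2 fold change 0.72, SE 0.25, adjusted p = 0.563, limma).

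In CAL-29, with 2 K and 3 W variants, no member passed (11 at an unadjusted p under 0.05), and 0.73% of all genes did. WC alone carries the AP-2γ term of this line in the fit, so the WWOX estimate rests on KK, KA, WK and WA. The WC values below are shown but do not enter it. COL22A1 stood at 1.12 and 0.94 CPM in KK and KA and at 10.9, 2.45 and 1.29 CPM in WK, WA and WC (log2 fold change 1.93, SE 0.38, adjusted p = 0.0642), and COL4A1 at 31 and 33.3 and 1.88, 13.7 and 31.3 CPM (log2 fold change -2.49, SE 0.52, adjusted p = 0.0807). COL22A1 passed the filter through CAL-29 WK alone, a library of the arm where it is high, so its value rests on that library. Voom and edgeR called none, and DESeq2 called 4: COL4A1, COL4A2, COL12A1 and ITGB3. TMM called COL4A1 and COL4A2. Without KK or WK of CAL-29 10 members passed and without KA or WA 8, in fits that take the spread from the other lines alone. Values did not overlap between W and K for 7 members (16.7%) and 18.8% of all genes in CAL-29, and for 14 members (33.3%) and 35.6% of all genes in HT-1376.

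Whether the WWOX effect differed between the lines was tested directly. It did for 3 of 42 members, COL1A2, COL4A6 and ITGB5, where 2.9% of all genes passed (adjusted p = 0.0128, 0.0224 and 0.0411, limma). The effect on COL1A2 was 0.00 in RT-112, 3.14 for HT-1376 and -0.08 for CAL-29. It had 0 reads in RT-112 and at most 1 read in the 5 CAL-29 libraries, so an effect was not detectable there and the difference between lines cannot be told apart from where it was expressed. That on COL4A6 was 0.02, 3.79 and 0.13. For ITGB5 it was -0.17, -1.32 and 0.59. With all 18 libraries none of the 3 passed, and leaving out single libraries gave counts of 0 (without RT-112 KA or RT-112 WA) to 18 (without CAL-29 KK or WK, where CAL-29 no longer adds to the estimate of the spread).

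Over all 3 lines, with the line as a term, no member passed for WWOX (10 at an unadjusted p under 0.05), AP-2α (1) or AP-2γ (5), and 0% of all genes did. For WWOX, COL6A2 had the smallest p (log2 fold change 1.20, SE 0.28, adjusted p = 0.199), followed by COL1A2 (log2 fold change 1.15, SE 0.42, adjusted p = 0.334). COL6A2 was called by voom, edgeR and DESeq2 and with a pseudocount of 0.05 CPM, and COL1A2 by the former 3. For AP-2α these were COL4A5 (-0.67, SE 0.28) and COL5A2 (-0.38, SE 0.22), with an adjusted p of 1 for both (limma). For AP-2γ they were LAMB2 (-0.58, SE 0.20) and COL4A5 (-0.87, SE 0.30), both with an adjusted p of 0.999. Voom, edgeR and DESeq2 called no member for AP-2α or AP-2γ over all lines.

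Within single lines AP-2α called no member, with 3, 2 and 9 members at an unadjusted p under 0.05 in RT-112, HT-1376 and CAL-29, and 0.00768%, 0% and 0% of all genes called. COL17A1 had the smallest p in RT-112 (log2 fold change -1.41, SE 0.25, adjusted p = 0.432), being lower in KA and the library labelled WA (7.42 and 11.7 CPM) than in KK and WK (18.3 and 35.5 CPM), followed by COL4A3 (-1.51). In HT-1376 these were COL1A2 (0.89, adjusted p = 0.982) and COL5A1 (1.67, adjusted p = 0.982), and in CAL-29 COL12A1 (-1.97, adjusted p = 0.341) and COL5A2 (-1.09, adjusted p = 0.393, limma). Without the library labelled RT-112 WA no member passed in any line, nor did any over HT-1376 and CAL-29 alone. Voom and edgeR called none in any line, and DESeq2 called COL12A1 in CAL-29. Without CAL-29 WK or WA 10 members passed in that line, and without CAL-29 KK or KA 3.

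AP-2γ called no member in RT-112 and HT-1376 (3 and 8 at an unadjusted p under 0.05), where 0.0384% of all genes passed in each. COL17A1 (-0.72) and COL4A3 (-1.59) had the smallest p in RT-112, both with an adjusted p of 1. In HT-1376 ITGA5 (1.42, adjusted p = 0.48) and ITGB3 (1.53, adjusted p = 0.601) did, with ITGA5 at 149 CPM in WC and 69.9 CPM in KC against 24.6 in KK and 57.8 in WK. DESeq2 called ITGA5, voom and edgeR called none, and limma called 1 member without HT-1376 WK. In CAL-29, where the effect rests on the WC library alone once the library labelled KC is left out, LAMB2 was called, 1 of 42 members where 2.45% of all genes passed. It stood at 81.3 CPM in WC and at 259, 176, 235 and 222 CPM in KK, KA, WK and WA (log2 fold change -1.64, SE 0.30, adjusted p = 0.0343, limma). TMM moved the median of all genes by 0.48 in this comparison, and LAMB2 did not pass after it (-1.15, adjusted p = 0.105). It did not pass with all 18 libraries either (-1.12, adjusted p = 0.065). Leaving out single libraries gave 0 to 18 called members, 0 without any one of the RT-112 libraries and 18 without CAL-29 WK.

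The study's own comparisons set each variant against KK with the 3 lines as replicates. No member passed against KK in WC or WA, nor in KC, KA or WK (limma over 18 libraries without a term for the line), and 0% of all genes did. Over all genes, 38, 7, 11, 37 and 84 had an unadjusted p under 0.05 in WK, KA, KC, WA and WC, and DESeq2 called 3, 2, 4, 3 and 9. At an unadjusted p under 0.05 there was 1 member in WC/KK and 0 in the other 4, and this was COL4A4 (-1.50, SE 0.65, adjusted p of 1). The members next in order were COL1A1 and LAMB4 in WK/KK (1.11 and -1.98), COL4A4 and LAMB3 in KA/KK (-0.74 and -0.42), ITGAE and COL18A1 in KC/KK (-0.63 and -1.08), COL1A1 and LAMA3 in WA/KK (1.11 and 1.41) and ITGA5 in WC/KK (1.30). Voom, edgeR and DESeq2 called no member in any of the 5, and neither did limma with the line as a block. The comparisons share KK, so their likeness is not given as a result.

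Other genes of the pathway, from lists of collagen maturation, basement membrane partners and ligands, other matrix receptors and integrin adaptors, were called between the lines about as often as all genes in most lists. Of 18 collagen maturation genes tested, 1 was higher and 10 lower in RT-112 than in HT-1376, 1 higher and 12 lower than in CAL-29, and 6 higher and 6 lower in HT-1376 than in CAL-29. These were 61.1%, 72.2% and 66.7% of the list, beside 61.9%, 71.5% and 61% of all genes, which were also mostly lower in RT-112 (2498 higher and 5557 lower against HT-1376, and 1994 and 7320 against CAL-29). The collagen cross-linking enzyme LOXL4 was -5.97 (SE 0.68) and the prolyl 3-hydroxylase P3H2 -4.53 (SE 0.30) for RT-112 against HT-1376, and the collagen chaperone SERPINH1 was -3.89 (SE 0.38) against CAL-29. Of 9 basement membrane partners and ligands, 2 were higher and 2 lower, 1 higher and 6 lower, and 1 higher and 6 lower in the same order (44.4%, 77.8% and 77.8%). NID1, the laminin and type IV collagen linker nidogen, was -5.79 (SE 0.33) for RT-112 and -5.72 (SE 0.33) for HT-1376 against CAL-29. Of 9 other matrix receptors, 6, 5 and 5 passed (66.7%, 55.6% and 55.6%), among them the laminin receptor BCAM (-4.71, SE 1.01, RT-112 against CAL-29). Of 16 adaptors, 10, 12 and 10 passed (62.5%, 75% and 62.5%), led by SRC (3.39, SE 0.13, RT-112 against HT-1376). For WWOX within HT-1376, 2 maturation genes fell (LOXL4, -3.95, SE 0.39, and P3H2, -1.66, SE 0.34), the ligands TNC and THBS1 rose (3.93, SE 0.73, and 2.61, SE 0.53), BCAM fell (-4.73, SE 0.69), and the adaptors PARVA and FERMT1 fell (-1.83, SE 0.27, and -0.91, SE 0.20). These shares, 11.1%, 22.2%, 11.1% and 12.5%, stand beside 9.75% of all genes.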

How the data were processed

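CAGE-seq libraries of 3 bladder cancer cell lines in 6 variants each were used, 1 library per line and variant. The authors sequenced 75 nt single-end reads, aligned them (HISAT2 2.0.5 and the build hg38 per the submitters' processing notes), called CAGE clusters and deposited CPM values per Ensembl gene. How clusters were assigned to genes, and with which annotation, is not given in the sources used here. The 18 per-sample files held the same values as the series table. Of the Ensembl identifiers, 16553 matched GENCODE 44 and 22 did not. Some genes of the members' symbol forms are not reported here by name, though counts over all members may include them.

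Values were tested as log2(CPM + 0.5) with limma 3.58.1 in R 4.3.3 (trended empirical Bayes, Benjamini-Hochberg adjustment over all genes, threshold 0.05), over genes that reached 5 CPM in 1 library or more. A fold change is on that scale and understates the change of low genes. The line fit had terms for line and variant, the fit within lines had WWOX, AP-2α and AP-2γ terms per line, the fit over all lines had a line term, and the study's comparisons with KK, over 18 libraries, had no line term. The other fits left out the library labelled CAL-29 KC. Since a cell line and a variant have 1 library each, p-values measure the spread between these libraries, and in the fits within lines it is the spread left after the WWOX and AP-2 terms were added up. The variants are paired by cell line by design: deviations from the variant means correlated at 0.66 to 0.92 between libraries of a line, across genes.

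From 99.82% to 99.99% of the CPM values of a library came out as whole reads within the rounding of the file (0.0051 CPM), so voom, edgeR 4.0.16 and DESeq2 1.42.0 on these reads were alternatives. Other settings were a pseudocount of 0.05 or 2 CPM, all genes unfiltered, 5 CPM in 3 libraries or more, TMM scaling, all 18 libraries, the line as a block, and each library left out in turn. The block without CAL-29 KC was chosen after seeing the data. The fits were tested on simulated data. Levels and floors of 3 reads cover counting error only.

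The members and lists were chosen with earlier results of these data known. Members were named by level where the median reached 20 CPM in a line, by name for LAMA3, LAMB3, ITGA6 and ITGB4, the type IV pairs and leukocyte integrins, and by comparison where they passed (the 10 largest changes where more did) or, where none passed, by the 2 smallest p-values. COL1A1 and COL3A1 between lines, COL6A3, COL18A1 and other members outside this rule were named after their values were seen. Python 3.11.15, NumPy 2.4.6, pandas 2.3.3 and matplotlib 3.10.9 were used for the tables and plots.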

Additional observations from a re-analysis of the deposited data

Results flagged for a closer look

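Of 87 groups of 5 or 6 libraries of a line examined for a member past the filter, 9 had a library far from the others on the CPM scale. The rule flags about 5% of groups by chance where values are normally distributed. CPM values need not be, and all 9 were the highest of their group, so that rate may not apply. In RT-112, COL4A1 stood at 69.5 CPM in WK and ITGAV at 10.1 CPM in WC, each above the 5 other libraries. In HT-1376, COL5A1 stood at 25.6 CPM in WA, ITGA5 at 149 CPM in WC, and LAMB4 at 14.2 CPM in KK. ITGB1, at 122 CPM, and ITGB6, at 18 CPM, were both far above the rest in HT-1376 KC. In CAL-29, COL12A1 stood at 147 CPM in KK and COL4A3 at 5.67 CPM in WA. The effect of WWOX differed between the cell lines for COL1A2 (adjusted p = 0.0128, with at most 1 read per library in RT-112 and the CAL-29 libraries used), COL4A6 (adjusted p = 0.0224) and ITGB5 (adjusted p = 0.0411, limma), and none of these passed once the library labelled CAL-29 KC was included.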

How the results depend on the processing

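The counts of called members in the line comparisons were 27 to 34, 27 to 43 and 16 to 26 under 9 alternatives (29, 32 and 19 as reported) and 27 to 30, 29 to 33 and 18 to 23 with 1 library left out. LAMB3 and ITGAE changed sign in RT-112 against CAL-29, with values of 0.12 and 0.13 after TMM, 0.08 and 0.09 with voom, 0.06 and 0.07 with edgeR and 0.14 and 0.16 with DESeq2. The former 3 share the TMM scaling, and DESeq2 used its own size factors. For WWOX over all lines, 1 member was called in place of 0 with a pseudocount of 0.05 CPM and 2 with voom, edgeR or DESeq2, and 0 without the replicate block. With DESeq2, WWOX called 14 members in HT-1376, 4 in CAL-29 and 3 in RT-112, AP-2α called 1 in CAL-29, AP-2γ called 6 in CAL-29 and 1 in HT-1376, and the effect by line called 9. WWOX in CAL-29 called 1 member with no filter and 2 after TMM. AP-2γ in CAL-29 called 2 with a pseudocount of 2 CPM, 3 with no filter, 2 after TMM, 0 with edgeR and 2 with all 18 libraries. The effect by line called 5 with no filter, 5 after TMM and 0 with all 18 libraries, and WWOX in HT-1376 called 2 with all 18 libraries. The causes were not tested. With 1 library left out, calls ranged from 2 to 15 for WWOX in HT-1376, 0 to 10 for WWOX and for AP-2α in CAL-29, 0 to 1 for AP-2γ in HT-1376, and 0 to 18 for AP-2γ in CAL-29 and for the effect by line. The effect by line fell to 0 without RT-112 KA or WA, to 1 without any other RT-112 library or without HT-1376 KK, KA, WK or WA, and rose to 5 without HT-1376 KC or WC, 11 without CAL-29 KA or WA and 18 without CAL-29 KK or WK. AP-2γ in CAL-29 fell to 0 without any RT-112 library or without HT-1376 KK, KA, WK or WA, and rose to 7 without CAL-29 KK, KA or WA. The 5 comparisons with KK called 0 members in all 75 fits, 0 with the replicate block and 0 with the replicate block without CAL-29 KC. With 1 library per line and variant, counting error bears on members at a few reads, and the spread between libraries on all others.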
